A study of Mus musculus with 88 samples.

Results

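The 9 genes described here encode 4 secreted ligands of the Nodal and activin branch of TGF-beta signalling (Nodal, Gdf3, Inhba and Inhbb), the co-receptor Tdgf1, and 4 inhibitors that are also used as readouts of the pathway (Lefty1, Lefty2, Cer1 and Smad7). They were chosen by name for their role in the pathway. They are 9 of the 53697 genes listed in the mesoderm table, 9 of 54393 in the endoderm table, 9 of 26007 in the bulk embryoid body table and 9 of 15830 in the single-cell table.

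Nodal and the activins, which are dimers of the inhibin beta A and beta B chains encoded by Inhba and Inhbb, bind activin receptors and lead to phosphorylation of Smad2 and Smad3, which enter the nucleus with Smad4 and act there with partners such as Foxh1. Nodal and Gdf3 signal with a co-receptor such as the membrane-anchored protein Tdgf1 (Cripto), which activins do not need. Nodal, Lefty1 and Lefty2 are themselves targets of the pathway, and the Lefty proteins and Cer1 block it outside the cell while Smad7 blocks it inside. In the mouse embryo Nodal signalling is needed to form the primitive streak, and higher signalling favours endoderm over mesoderm.

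The study followed mouse embryonic stem cells that lack subunits of Polycomb repressive complex 2 (PRC2), which places methyl groups on lysine 27 of histone H3. Mtf2 and Jarid2 are accessory subunits and Eed is a core subunit. In 2 directed series, E14 wild-type (WT) cells, Mtf2 null cells made with a gene trap and cells labelled Jarid2 null were profiled undifferentiated (UD, in serum with LIF) and after 5, 24 and 48 h, with 2 libraries for each genotype and time and 24 libraries in each series. In the mesoderm series the cells received Activin A, BMP4, CHIR99021 (a GSK3 inhibitor that activates Wnt signalling) and FGF2 for 24 h, and then BMP4 with A-83-01, an inhibitor of the type I receptors for activin, Nodal and TGF-beta. In the endoderm series they received Activin A, CHIR99021 and FGF2 for 24 h, and then Activin A with DM3189, a BMP receptor inhibitor. All groups of both series were therefore given an external pathway ligand for the 24 h after the UD state, and the receptor inhibitor was present at 48 h only in the mesoderm series. Embryoid bodies, which are aggregates that differentiate without added lineage factors, were profiled in bulk on days 0, 2, 4 and 7 from samples labelled Mtf2 null, Jarid2 null and Eed null and from the lines Pcl1-3 wt, JM8 and J1, with 1 sample for each line and day. By the column names the day 0 samples are monolayer cells, from before the aggregates were made. Of these 24 samples 22 have 2 columns in the deposited table, which were averaged and counted as 1 sample. Individual cells from embryoid bodies of 4 genotypes (WT and nulls for Mtf2, Jarid2 or Eed) were also sequenced, with 1 library for each genotype on days 0, 4, 7 and 10. The paper names Pcl1-3 wt, JM8 and J1 as wild-type lines matched in background to the Mtf2, Jarid2 and Eed null cells. The directed and single-cell WT samples are E14 and not these lines, so genotype and line of origin cannot be told apart there.

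The directed libraries held 9111880 to 16898264 estimated counts in the mesoderm series and 9889592 to 16372804 in the endoderm series. The authors call the duplicates technical, so p-values measure only the spread between these libraries. Mtf2 mRNA was 30.2 to 38.2 CPM (counts scaled to library size) in Mtf2 null libraries against 206 to 509 in WT. Jarid2 mRNA was not depleted in the libraries labelled Jarid2 null (189 to 622 CPM against 307 to 661 in WT), so these are called by their label throughout. The same-numbered UD libraries of both series differed less (median 1.95 to 2.93 times sampling noise) than replicates 1 and 2 within a series (3.36 to 5.98 times), so UD results of the 2 series are not independent of each other. In WT cells at 48 h the endoderm markers Sox17 and Foxa2 were at 0.173 and 0.377 and at 0.346 and 0 CPM in the endoderm series, and the mesoderm marker Kdr was at 0.196 and 0.0815 CPM in the mesoderm series, where Hand1 was at 4.51 and 5.87 CPM. The series are therefore named by treatment. In Mtf2 null libraries several endoderm markers were called higher than in WT at every time of both series. At 48 h of the endoderm series 3 of 4 definitive endoderm markers were called higher (Sox17 at 34.3 and 30.6 CPM, Foxa2 at 19.8 and 15.6, and Gata6), and the 4 summed to 121 and 102 CPM against 1.47 and 2.35 in WT. Of 5 visceral endoderm markers the 3 tested were called higher there (Ttr, Amn and Sox7), the 5 summed to 124 and 108 against 3.46 and 3.20 CPM, and Afp and Apoa1 stayed under 0.3 CPM. In bulk samples fewer cells of a type and less RNA per cell cannot be told apart.

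Divided by exon length, Tdgf1 had the highest level of the 9 genes in UD WT cells, at 421 ± 49.6 CPM per kb (SD, n = 2) in the mesoderm series. The next 6 lay close together and several neighbours in this order did not differ beyond their spread: Lefty2 at 34.7 ± 8.79, Lefty1 at 27 ± 8.73, Smad7 at 26.9 ± 3.96, Inhbb at 21.4 ± 2.29, Gdf3 at 19.6 ± 4.41 and Nodal at 15.3 ± 1.58 CPM per kb. At 24 h the order had changed, and Lefty2 was highest with 145 ± 6.24 CPM per kb in the mesoderm series and 182 ± 11.8 in the endoderm series. Tdgf1 followed in the mesoderm series with 48.8 and 51.3 CPM per kb in its 2 libraries, and Inhbb had the lowest level of the 7 with 1.17 ± 0.0374. Inhba and Cer1 were barely detected in the directed series. Inhba had 7 counts in 5 of 24 mesoderm libraries and 29 counts in 15 of 24 endoderm libraries, and Cer1 had 5 counts in 4 libraries and 6 counts in 4 libraries. Neither passed the filter on low counts, so 7 of the 9 genes were tested.

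The promoters of Nodal, Inhbb and Tdgf1 are shown because these are the ligands and the co-receptor whose mRNA passed the test in a mutant or during the time course, and because Polycomb complexes are known to bind at CG-rich promoters. Sequences are from RefSeq (GRCm38.p6), from 250 bases before to 50 after the start, 5′ to 3′ on the strand of the gene, and capitals mark CG dinucleotides. Of the 9 genes 5 were searched (Nodal, Inhba, Inhbb, Tdgf1 and Cer1). Lefty1, Lefty2 and Gdf3 had no entry, and the promoter of Smad7 was left out of the search.
Nodal: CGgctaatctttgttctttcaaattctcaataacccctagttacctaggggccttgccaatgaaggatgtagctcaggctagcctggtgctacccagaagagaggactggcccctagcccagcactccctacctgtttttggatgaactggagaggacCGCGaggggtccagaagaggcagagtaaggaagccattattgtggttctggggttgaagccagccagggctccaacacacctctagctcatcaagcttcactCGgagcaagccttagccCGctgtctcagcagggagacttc
Inhbb: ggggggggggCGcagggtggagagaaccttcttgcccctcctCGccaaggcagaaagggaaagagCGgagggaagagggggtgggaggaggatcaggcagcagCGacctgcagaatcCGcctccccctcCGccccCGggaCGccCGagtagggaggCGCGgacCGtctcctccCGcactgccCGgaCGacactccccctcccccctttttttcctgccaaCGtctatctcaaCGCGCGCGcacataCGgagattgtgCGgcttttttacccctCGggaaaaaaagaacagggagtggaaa
Tdgf1: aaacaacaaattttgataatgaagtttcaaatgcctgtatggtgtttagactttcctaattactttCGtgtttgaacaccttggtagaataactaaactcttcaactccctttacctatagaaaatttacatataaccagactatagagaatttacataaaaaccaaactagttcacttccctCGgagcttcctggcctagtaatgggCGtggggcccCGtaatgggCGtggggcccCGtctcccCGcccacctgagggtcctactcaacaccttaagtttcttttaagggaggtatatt
The Nodal promoter (chr10:61417722-61418021, plus strand) held 5 CG dinucleotides, that of Inhbb (chr1:119422199-119422498, minus strand) held 23 and that of Tdgf1 (chr9:110946109-110946408, minus strand) held 7. The median over 32851 promoters was 7, and 78.5% of promoters held fewer than that of Inhbb. The SMAD-binding motif CAGAC, searched on both strands, was found at 1 place each in the promoters of Tdgf1 (from base -113) and Cer1 (from base -213) and is present in 49.6% of all promoters. The Foxh1 motif AATNCACA (3.6% of promoters) and the palindrome GTCTAGAC (0.213%) were found in none of the 5. These are matches of letters in a 300-base window and were not related to binding data.

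A gene was called changed when the adjusted p from edgeR's quasi-likelihood test (Benjamini-Hochberg) was under 0.001 and the log2 fold change beyond 1 in either direction. In the mesoderm series Mtf2 null cells differed from WT in 2 of 7 tested genes when undifferentiated (11.1% of all tested genes were called), 2 at 5 h (7.56%), 1 at 24 h (5.72%) and 1 at 48 h (6.82%). It was 1 of 7 at each time of the endoderm series, against 11%, 7.61%, 6.58% and 10.5% of all genes. For the libraries labelled Jarid2 null the count was 1 of 7 in UD cells of the mesoderm series (0.37% of all genes) and 2 of 7 at 24 h (1.97%), and 2 of 7 in UD cells of the endoderm series (0.742%). At 5 h and 48 h of the mesoderm series (0% and 0.169% of all genes) and at 5, 24 and 48 h of the endoderm series (0.0363%, 0.0312% and 0.125%) edgeR called 0 of 7. Unadjusted p-values under 0.05 numbered 2 and 1 in the former and 1, 2 and 2 in the latter, and DESeq2 called 0 in each. In WT cells 3, 2 and 4 of 7 changed over the successive intervals of the mesoderm series (4.13%, 4.41% and 4.16% of all genes), and 1, 2 and 1 over those of the endoderm series (2.1%, 2.5% and 3.88%). Each call among these 7 genes was also computed with replicate 1 or 2 left out of the groups compared. The lone library of a group is then assumed to vary like those of the other groups. Calls lost in this way are given beside the result. Calls of marker genes and of other pathway genes were not recomputed in this way.

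**Figure D1:**
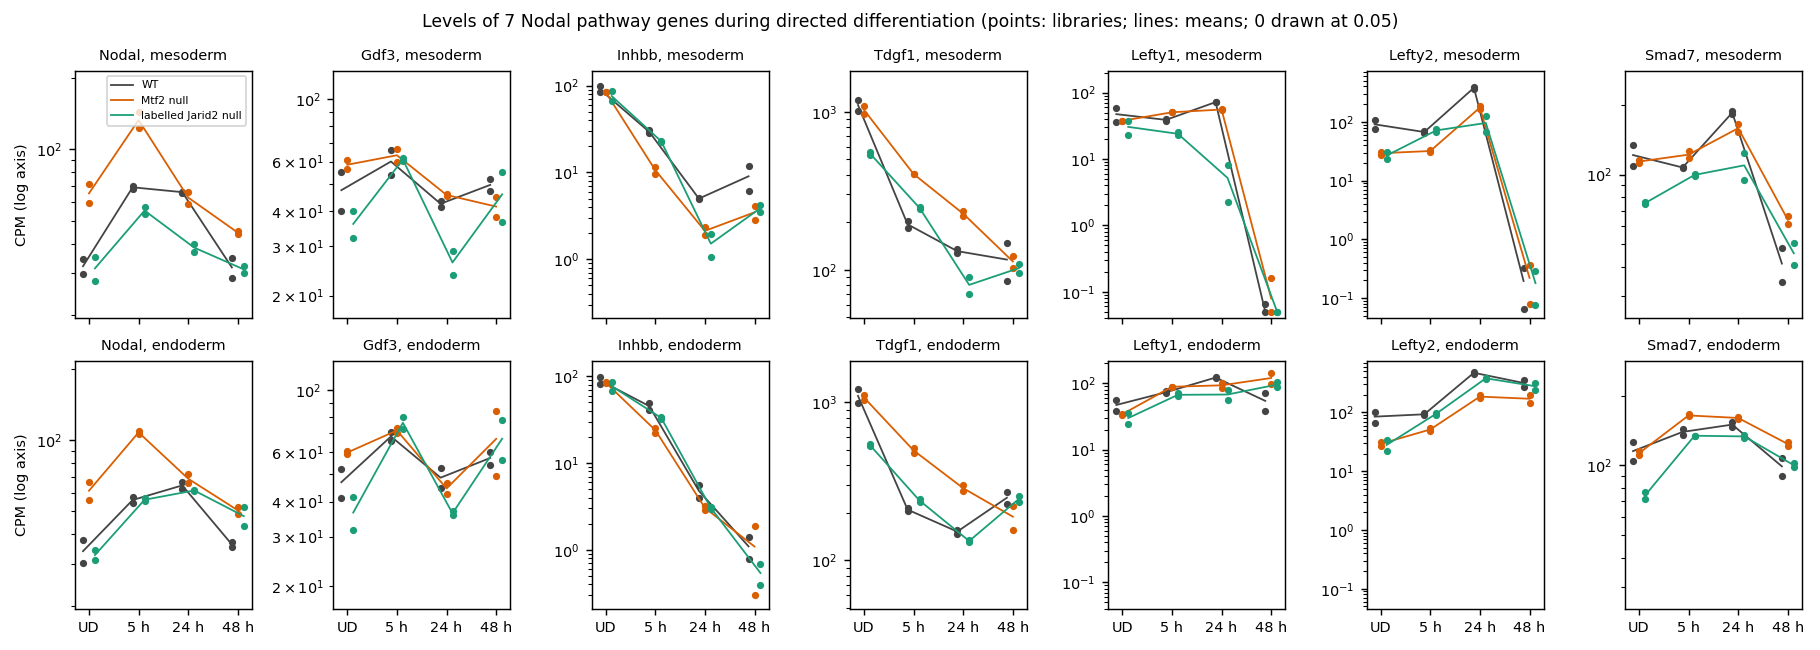
Level (CPM, log axis) of the 7 tested genes at UD, 5, 24 and 48 h (evenly spaced) in the mesoderm series (upper row) and the endoderm series (lower row), with points for libraries, lines for means of 2 libraries and 0 drawn at 0.05. Lefty1 and Lefty2 stood at 0 to 0.363 CPM at 48 h in all 3 genotypes of the mesoderm series and at 38.3 CPM or more in the endoderm series.

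Nodal rose when WT cells left the UD state in the mesoderm series and fell again from 24 to 48 h. In the mesoderm series WT libraries held 34.5 and 29.8 CPM when undifferentiated, 70.2 and 68.3 at 5 h, 65.8 and 66.3 at 24 h, and 34.8 and 28.8 at 48 h. The 5 and 24 h libraries were all above the UD and 48 h libraries, and both changes passed the test, at a log2 fold change of 1.11 (SE 0.131, edgeR adjusted p = 4.75e-06) from UD to 5 h and -1.05 (SE 0.129, adjusted p = 5.82e-06) from 24 to 48 h. Without replicate 2 these were 1.03 (adjusted p = 0.00267) and -0.87 (adjusted p = 0.00194) and were not called. WT levels in the endoderm series were 37.8 and 30.2, 54.04 and 57.7, 62.4 and 66.4, and 35.4 and 37.1 CPM, and the changes of 0.72 (adjusted p = 0.000129) and -0.83 (adjusted p = 2.04e-05) did not reach the fold limit.

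Mtf2 null cells held more Nodal mRNA than WT before differentiation. UD Mtf2 null libraries had 59.3 and 71.2 CPM in the mesoderm series, both above the WT libraries (log2 fold change 1.02, SE 0.131, edgeR adjusted p = 3.37e-06). Without replicate 2 the difference was 0.79 (adjusted p = 0.00224) and not called. These UD Mtf2 null libraries also had 3 of 4 definitive endoderm markers called higher (Sox17, Foxa2 and Gata6, summed with Cxcr4 to 26 and 32.5 CPM against 4.14 and 2.90 in WT), and their part in the result was not tested. The UD Mtf2 null libraries of the endoderm series had 56.0 and 66.3 CPM, again above both WT libraries, at a log2 fold change of 0.85 (adjusted p = 6.12e-06) that was under the fold limit. At 5 h Mtf2 null libraries stood at 123 and 143 CPM in the mesoderm series and at 110 and 106 in the endoderm series, the highest Nodal levels of the directed libraries, with log2 fold changes of 0.94 (adjusted p = 7.73e-06) and 0.95 (adjusted p = 1.2e-06) that were also under the limit. Leaving out 1 replicate moved 3 of these differences past it, to 1.15 without replicate 1 (UD, endoderm series), 1.08 without replicate 1 (5 h, mesoderm series) and 1.01 without replicate 2 (5 h, endoderm series). At 24 h the groups overlapped in the mesoderm series, where Mtf2 null libraries had 59.1 and 66.2 CPM beside 65.8 and 66.3 in WT. The change of the Mtf2 null effect from UD to 24 h passed its own interaction test in the mesoderm series (-1.10, SE 0.181, adjusted p = 0.000394, 1 of 7 genes against 2.27% of all genes). It was -1.27 (adjusted p = 0.00954) without replicate 1 and -0.94 (adjusted p = 0.0649) without replicate 2, neither called. In the endoderm series, where Mtf2 null cells had 71.7 and 65.7 CPM at 24 h, it was -0.76 (adjusted p = 0.00289) and not called. The endoderm interactions gave 0 calls among the 7 genes by edgeR for Mtf2 null (2.36% of all genes) and 0 for the label Jarid2 null (0.0675%), with 2 and 3 at an unadjusted p under 0.05 and 0 by DESeq2. The libraries labelled Jarid2 null had 37.04 and 40.03 CPM at 24 h of the mesoderm series, both below WT, at a log2 fold change of -0.78 (adjusted p = 0.00032) under the fold limit. At that time of the endoderm series they had 60.9 and 61.8 CPM, close to WT.

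Gdf3, a ligand that acts with Nodal through Tdgf1, was not called in any comparison of the directed series. Its WT levels lay between 39.9 and 66.2 CPM in the mesoderm series and between 41.3 and 70.9 in the endoderm series. The lowest libraries were those labelled Jarid2 null at 24 h of the mesoderm series, with 23.7 and 28.7 CPM against 41.4 and 43.5 in WT (log2 fold change -0.70, edgeR adjusted p = 0.00778).

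Inhbb, which encodes the beta B chain of activin B, fell steeply during differentiation. WT libraries of the mesoderm series had 98.0 and 84.3 CPM when undifferentiated, 28.1 and 30.5 at 5 h, 4.88 and 5.11 at 24 h, and 6.14 and 11.9 at 48 h. The groups of the 3 earlier times did not overlap, and the log2 fold change was -1.64 (SE 0.195, edgeR adjusted p = 5.03e-06) from UD to 5 h and -2.55 (SE 0.237, adjusted p = 2.75e-07) from 5 to 24 h. The former was not called without replicate 1 (adjusted p = 0.00107) or 2 (adjusted p = 0.0011). Inhbb went on falling in the endoderm series, from 99.3 and 80.5 through 41.4 and 49.3 and 5.60 and 3.96 to 0.780 and 1.41 CPM. The steps were -0.99 (adjusted p = 0.000508, under the fold limit), -3.25 (SE 0.235, adjusted p = 6.91e-09) and -2.12 (SE 0.406, adjusted p = 0.00066). The last step was -1.48 (adjusted p = 0.0946) without replicate 1 and -2.83 (adjusted p = 0.00352) without replicate 2.

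Mtf2 null cells had less Inhbb mRNA than WT during the mesoderm series although their UD levels overlapped. UD Mtf2 null libraries had 84.8 and 83.9 CPM, and at 5 h 9.70 and 11.6 against 28.1 and 30.5 in WT (log2 fold change -1.45, SE 0.215, edgeR adjusted p = 3.02e-05). Without replicate 1 or 2 the 5 h call was lost (adjusted p = 0.00511 and 0.00369). At 48 h Mtf2 null libraries had 2.82 and 4.12 CPM, both below WT, at -1.34 (SE 0.273, adjusted p = 0.000877), which was -1.16 (adjusted p = 0.00994) without replicate 2 and -1.34 (adjusted p = 0.00101) with a replicate block, neither called. At 24 h the levels were 1.90 and 2.34 CPM (-1.23, adjusted p = 0.00958), not called. At 5 h of the endoderm series the levels were 25.7 and 22.3 CPM, below both WT libraries, at -0.92 (adjusted p = 0.00128), not called. Libraries labelled Jarid2 null had 1.06 and 1.96 CPM at 24 h of the mesoderm series, lower than WT at -1.76 (adjusted p = 0.00139), which did not pass the test.

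Tdgf1, the co-receptor, fell within 5 h in WT cells of both series. The UD libraries had 1012.5 and 1196.4 CPM in the mesoderm series and 985.53 and 1215.1 in the endoderm series, against 204 and 184 and 206 and 213 at 5 h. The groups were far apart, and the log2 fold change was -2.51 (SE 0.185, edgeR adjusted p = 2.41e-08) and -2.39 (SE 0.139, adjusted p = 2.97e-10). Afterwards WT levels ranged from 84.8 to 147 CPM in the mesoderm series and from 148 to 270 in the endoderm series.

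At 5 h Mtf2 null cells held more Tdgf1 mRNA than WT in both series. They had 406 and 402 CPM in the mesoderm series (log2 fold change 1.06, SE 0.178, edgeR adjusted p = 0.000125) and 480 and 514 in the endoderm series (1.25, SE 0.135, adjusted p = 3.73e-07), all above the WT libraries. The call in the mesoderm series was lost without replicate 1 (adjusted p = 0.00777) or 2 (adjusted p = 0.0174), and that in the endoderm series was not. UD Mtf2 null libraries had 973.48 and 1084.7 CPM in the mesoderm series and overlapped WT. At 24 h they had 235 and 218 and, in the endoderm series, 274 and 299 CPM, above WT at 0.79 (adjusted p = 0.0027) and 0.91 (adjusted p = 2.48e-05), neither of which met both limits. The libraries labelled Jarid2 null began lower, with 555 and 536 CPM in the mesoderm series (-1.02, adjusted p = 0.00172, not called) and 544 and 531 in the endoderm series (-1.03, SE 0.133, adjusted p = 4.05e-05). The call in the endoderm series was not kept without replicate 1 (-1.18, adjusted p = 0.00127) or 2 (-0.85, adjusted p = 0.00748). At 5 h their levels of 244 and 248 and of 234 and 245 CPM were above WT without being called.

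Lefty1 and Lefty2, neighbouring genes on chromosome 1 (180935022 to 180938400 and 180893108 to 180899103, GRCm38) that are induced by Nodal signalling and restrain it, gave the largest differences of the 7 genes. Of the 31-base stretches of Lefty1 exons 25.7% occur in Lefty2, and 17.2% of those of Lefty2 occur in Lefty1, so reads could be divided between them by the estimate. In WT cells of the mesoderm series Lefty2 had 107 and 74.5 CPM when undifferentiated, 70.7 and 63.5 at 5 h, 391 and 368 at 24 h, and 0.0654 and 0.326 at 48 h. The rise from 5 to 24 h was 2.5 on the log2 scale (SE 0.226, edgeR adjusted p = 1.94e-07), and all libraries at 24 h stood above every earlier one. Lefty1 had 58.3 and 36.6, 39.8 and 38.02, 72.6 and 71.6, and 0.0654 and 0 CPM at the same times, with a higher level at 24 h than at 5 h that was not called.

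At 48 h of the mesoderm series, after the receptor inhibitor was added, both Lefty mRNAs were at or near 0 in all 3 genotypes. The paper's methods give the step with the inhibitor as another 48 h, so the time of exposure at this label is not certain. Summed over the 2 WT libraries Lefty1 went from 1784 counts at 24 h to 1 at 48 h, a ratio of CPM of 1980 (95% interval 356 to 78400, counting error only), and Lefty2 from 9373 to 5 counts, a ratio of 2090 (893 to 6430). In Mtf2 null cells Lefty1 went from 1257 to 2 counts and Lefty2 from 3901 to 5 counts. In the libraries labelled Jarid2 null Lefty1 went from 117 to 0 counts, at least 38.7-fold lower against a floor of 3 counts over the group, and Lefty2 from 2214 to 4 counts. In the endoderm series, where Activin A continued, WT Lefty1 had 119 and 125 CPM at 24 h and 70.5 and 38.3 at 48 h, and WT Lefty2 had 452 and 496 and then 363 and 273 CPM. Neither of these differences was called, at -1.16 (adjusted p = 0.00107) for Lefty1, which was -1.70 (adjusted p = 0.000527) without replicate 1. Lefty2 had risen from 89.4 and 97.0 CPM at 5 h by 2.35 on the log2 scale (SE 0.201, adjusted p = 7.12e-08).

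Differences between the series in the change from 24 to 48 h were tested in 1 fit of all 48 libraries. They were called for 4 of 7 genes in WT cells (1.31% of all genes), 2 of 7 in Mtf2 null cells (0.704%) and 3 of 7 in the libraries labelled Jarid2 null (2.88%). The 2 columns of the last group at 48 h of the endoderm series are named 28h in the table and were matched to the 48 h label by library number, so values at that point rest on the label. Lefty1 and Lefty2 were called in each of the 3 genotypes, with fitted differences, endoderm less mesoderm, of 9.45 and 10.38 on the log2 scale in WT cells (edgeR adjusted p = 4.62e-09 and 2.15e-15) that depend on the prior count because the mesoderm libraries were near 0. For the libraries labelled Jarid2 null the Lefty1 call was lost without replicate 2 (8.21, adjusted p = 0.0176). Inhbb differed in the opposite direction, by -2.94 (SE 0.508, adjusted p = 0.000216) in WT cells and -3.89 (adjusted p = 5.89e-05) in the libraries labelled Jarid2 null, being lower at 48 h in the endoderm series. Both Inhbb calls were lost when either replicate was left out (adjusted p = 0.0109 and 0.00436 in WT cells, 0.00963 and 0.00769 in the libraries labelled Jarid2 null).

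Smad7, the intracellular inhibitor, was also highest at 24 h in WT cells of both series. In the mesoderm series it had 134 and 109 CPM when undifferentiated, 106 and 108 at 5 h, 183 and 187 at 24 h, and 34.4 and 48.4 at 48 h. The fall from 24 to 48 h was -2.17 on the log2 scale (SE 0.151, edgeR adjusted p = 2.26e-09), and the 48 h libraries lay below all earlier ones. Its endoderm series levels were 126 and 105, 136 and 143, 153 and 147, and 108 and 90.0 CPM, and the difference from 24 to 48 h of -0.60 (adjusted p = 0.000154) was under the fold limit. The change from 24 to 48 h differed between the series by 1.58 (SE 0.178, adjusted p = 2.38e-07). Among mutants no Smad7 difference met both limits. The lowest 24 h libraries were those labelled Jarid2 null in the mesoderm series, with 95.3 and 124 CPM (-0.76, adjusted p = 0.000979, under the fold limit).

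Lefty2 was lower in both mutants than in WT before differentiation in both directed series. UD WT libraries had 107 and 74.5 CPM in the mesoderm series against 30.996 and 27.5 in Mtf2 null libraries (log2 fold change -1.63, SE 0.233, edgeR adjusted p = 1.28e-05) and 30.5 and 22.9 in those labelled Jarid2 null (-1.76, SE 0.233, adjusted p = 0.000166). UD levels in the endoderm series were 103 and 67.0 in WT, 31.7 and 26.8 in Mtf2 null libraries (-1.54, SE 0.211, adjusted p = 5.68e-06) and 34.1 and 21.9 in those labelled Jarid2 null (-1.59, SE 0.21, adjusted p = 5.08e-05). No mutant library reached the lower WT library. In the day 0 monolayer samples of the embryoid body set (1 a line, limits of their labels below), Lefty2 under the label Jarid2 null stood 0.0609 above JM8 on the log2 scale. Under the label Mtf2 null it stood at -1.63 against Pcl1-3 wt. Of 5 markers of undifferentiated cells, Klf4 was higher (1.21) and Zfp42 lower (-2.46) in UD Mtf2 null cells of the mesoderm series, and none of the 5 was called for the label Jarid2 null. Endoderm markers were called higher in these Mtf2 null libraries: Sox17 (3.35), Foxa2 (3.00), Gata6 (3.13), Amn (2.62) and Sox7 (1.77), as was the lateral mesoderm marker Tbx20 (2.75). The 5 visceral endoderm markers summed to 20.4 and 25.2 CPM against 6.41 and 5.28 in WT, with Afp at 0 in all 4 libraries. No endoderm marker was called for the label Jarid2 null, and the part of these markers in the result was not tested. With replicate 1 left out these 4 calls gave adjusted p-values of 0.00242, 0.0134, 0.00126 and 0.00149 and were lost, and with replicate 2 left out the call for the label Jarid2 null in the mesoderm series was lost (adjusted p = 0.00593). Over all 12 UD libraries of both series Lefty2 was called for Mtf2 null (-1.56, adjusted p = 6.87e-07, 1 of 7 genes against 14% of all genes) and for the label Jarid2 null (-1.69, adjusted p = 5.39e-06). With same-numbered libraries of both series added up as 1 sample, a setting chosen after seeing the data, it was -1.54 (adjusted p = 2.28e-05) and -1.69 (adjusted p = 0.000195), the 1 gene of 7 called in either case (11.1% and 0.432% of all genes). Tdgf1 was the other gene called over the 12 libraries for the label Jarid2 null (-1.05, adjusted p = 1.09e-05, 2 of 7 genes against 1.07% of all genes), but not after adding up (-1.04, adjusted p = 0.00871) nor without replicate 2 (-0.89, adjusted p = 0.000262).

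Lefty2 was also lower in Mtf2 null cells at 24 h, when it was at its WT maximum. In the mesoderm series Mtf2 null libraries had 186 and 163 CPM of Lefty2 against 391 and 368 in WT (log2 fold change -1.12, SE 0.213, edgeR adjusted p = 0.000553), and in the endoderm series 177 and 195 against 452 and 496 (-1.35, SE 0.193, adjusted p = 1.75e-05). Both calls were lost when either replicate was left out (adjusted p = 0.0243 and 0.0423 in the mesoderm series, 0.00221 and 0.00336 in the endoderm series). In the endoderm series the primitive streak marker T was lower in these Mtf2 null libraries, at 3.5998 and 3.69 against 27.03 and 22.3 CPM (-2.75, adjusted p = 7.99e-08), and so was Otx2 (-4.25), while Sox17 (3.92), Foxa2 (5.96) and Gata6 (3.71) were higher. Otx2 was also lower in the mesoderm series (-3.37), where Sox17 (3.31), Foxa2 (3.26) and Gata6 (2.96) were higher and T was not called (-0.57). Over the 4 definitive endoderm markers the summed level was 25.8 and 20.7 against 3.05 and 2.43 CPM in the endoderm series and 17.1 in both libraries against 3.53 and 4.16 in the mesoderm series, and the part of these markers was not tested. At 5 h of the mesoderm series the Mtf2 null level of 33.02 and 30.8 CPM was also below WT, without being called (-1.08, adjusted p = 0.00129). Lefty1 was not called in Mtf2 null cells at UD, 5 or 24 h. At 24 h its level was 54.1 and 57.5 CPM in the mesoderm series and 86.3 and 100 in the endoderm series, below WT without a call, and at 48 h of the endoderm series it was higher than WT, at 143 and 97.2 against 70.5 and 38.3 CPM (1.14, SE 0.234, adjusted p = 0.000551). That call was lost without replicate 2 (1.03, adjusted p = 0.00365). The same libraries had Sox17 (6.85), Foxa2 (6.54), Gata6 (5.75), Ttr (9.58, against WT libraries at 0), Amn (7.11) and Sox7 (3.79) called higher, with the summed levels given above, and the part of these markers was not tested. At the same time Lefty2 was lower in Mtf2 null cells, at 196 and 146 against 363 and 273 CPM (-0.89, adjusted p = 0.000862, under the fold limit).

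In the libraries labelled Jarid2 null Lefty1 was far lower than in WT at 24 h of the mesoderm series. They had 2.27 and 8.14 CPM at 24 h against 72.6 and 71.6 in WT, a log2 fold change of -3.84 (SE 0.335, edgeR adjusted p = 1.84e-06), and 25.3 and 22.7 CPM at 5 h against 39.8 and 38.02. This call held when either replicate was left out, but not with only the libraries of these 2 groups in the fit (adjusted p = 0.00218). Lefty2 had 65.999 and 125 CPM at 24 h against 391 and 368 (-1.99, SE 0.22, adjusted p = 1.27e-05), and -1.52 (adjusted p = 0.00347) without replicate 1. The change of the genotype effect on Lefty1 from UD to 24 h passed its interaction test (-3.21, SE 0.436, adjusted p = 0.000742, 1 of 7 genes against 0.136% of all genes), but not without replicate 1 (-2.47, adjusted p = 0.00361) or with a replicate block (adjusted p = 0.0014). All 7 tested genes were below WT at this point, with a median of -0.778 against -0.0387 over all genes, and 2 of the 7 were called. In the endoderm series the same label gave 79.8 and 55.9 CPM of Lefty1 at 24 h (-0.85, adjusted p = 0.151) and 389 and 374 of Lefty2 (-0.31, adjusted p = 0.67). The test of that difference between the series, added after seeing the data, called Lefty1 (3.02, SE 0.438, adjusted p = 0.000359, 1 of 7 genes against 0.117% of all genes) and not Lefty2 (1.70, adjusted p = 0.00186). Without replicate 1 the Lefty1 difference was 1.92 (adjusted p = 0.417) and not called. The same test for Mtf2 null cells called 0 of 7 genes (0.0051% of all genes), with 0 at an unadjusted p under 0.05 and 0 by DESeq2. For the label Jarid2 null at 24 h of the mesoderm series, the primitive streak marker T stood at 22.0 and 39.8 CPM against 55.6 and 59.8 in WT (-0.91, adjusted p = 0.0116, not called), and its part in the result was not tested.

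**Figure D2:**
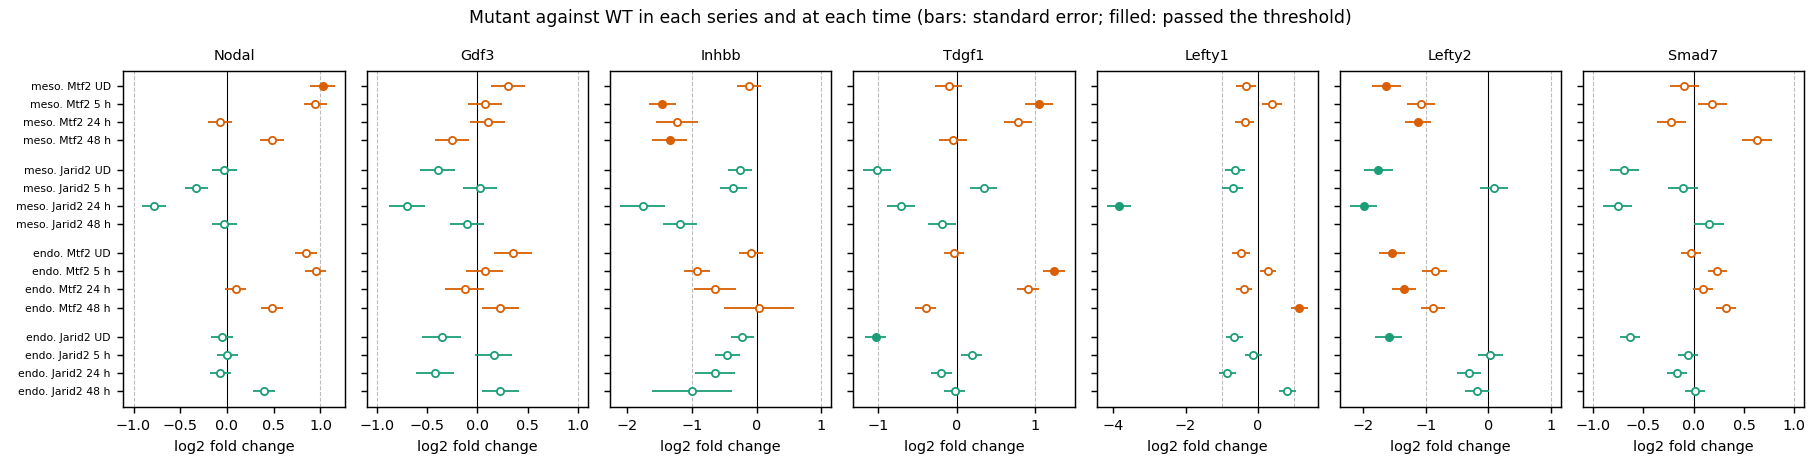
Log2 fold change of mutant against WT (x axis; negative is lower in the mutant) for the 7 tested genes in each series and time (rows; UD, undifferentiated), with bars for the standard error and filled points for those called, and with Lefty1 and Lefty2 at 48 h of the mesoderm series left out because their counts were near 0. Lefty1 at 24 h in the mesoderm libraries labelled Jarid2 null lies farthest from 0 at -3.84, and Nodal lies to the right in Mtf2 null cells at UD and 5 h in both series.

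Of 27 other genes of the pathway (ligands, receptors, Smads, cofactors, inhibitors and targets), 23 were tested in the mesoderm and 24 in the endoderm series. None was called in the libraries labelled Jarid2 null at any time, where 0 to 1.97% of all genes were called. Fst, which encodes the activin antagonist follistatin, was higher in Mtf2 null cells in both series when undifferentiated (log2 fold change 3.15 and 4.33) and at 5 h (2.10 and 1.98). Its level in the mesoderm series was 0.591 and 0.767 CPM in UD WT cells against 6.72 and 5.60 in Mtf2 null cells, and 7.77 and 7.83 against 32.6 and 34.3 at 5 h. Like Nodal, Fst lost part of this difference by 24 h, and the interaction was called in the mesoderm series (-2.24) and in the endoderm series (-3.51). The other UD calls in Mtf2 null cells were Tgif1, a Smad corepressor (1.01 and 1.03), and in the endoderm series the receptor Acvr2a (1.09), all higher. This made 2 of 23 and 3 of 24 genes in UD cells, against 11.1% and 11% of all genes. At 5 h it was 1 in each series (7.56% and 7.61%). At 24 h it was 0 in the mesoderm series (5.72%) and 1, lower, in the endoderm series (6.58%). At 48 h of the endoderm series 4 of 24 genes were called (10.5% of all genes), all higher in Mtf2 null cells. They were Furin, a protease that processes Nodal (1.90), Smad3 (1.13) and the targets Lhx1 (5.19) and Pmepa1 (2.00). Furin had 110 and 92.2 CPM there against 28.2 and 26.3 in WT. The endoderm markers that were higher in the same libraries are given above, and their part was not tested. At 48 h of the mesoderm series 3 of 23 were called (6.82% of all genes), all higher in Mtf2 null cells, among them Fst (1.28) and Pmepa1 (1.87). In those libraries the 4 definitive endoderm markers summed to 59.5 and 49.1 against 1.57 and 3.91 CPM in WT. In WT cells Pmepa1 and Fst fell, as did the Lefty genes and Smad7, from 24 to 48 h of the mesoderm series (-2.76 and -2.75).

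Across the means of the 24 groups of both directed series, which share genotypes, times and library preparation, the log2 level of Lefty1 (each series centred on its own mean) was most like that of its neighbour Tmem63a (Pearson r = 0.89), then Lefty2 (0.853), among 12818 genes. Both lie on chromosome 1 near Lefty1, with gaps of 3944 bases to Tmem63a and 35919 to Lefty2. Lefty2 was most like Lefty1, Tmem63a (0.842) and Ap3b2 (0.818). Smad7 was most like Il17rd (0.881) among all genes, and among the 9 genes its correlation with Lefty1 was 0.835 and with Lefty2 0.808. Inhbb was most like Erf (0.95) and Tdgf1 most like Trappc13 (0.943), and the correlation of Inhbb with Tdgf1 was 0.769. Nodal was most like Lnx2 (0.933) and Gdf3 most like Utf1 (0.89), a gene of undifferentiated cells. These correlations are descriptions over shared samples.

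In bulk embryoid bodies each line and day was 1 sample, and some labels went against the targeted gene. Where the 9 genes had at least 5 CPM in both columns of a sample (134 values, each column scaled to its own total), the higher column was a median of 1.07 times the lower, and more than 1.5 times in 4 cases, the highest 1.82 for Tdgf1 in Pcl1-3 wt on day 2. Whether the columns are separate cultures is not given in the sample labels, so they are not used as replicates in a test. Mtf2 stood at 315, 226, 230 and 164 CPM on days 0, 2, 4 and 7 in the samples labelled Mtf2 null against 414, 440, 325 and 386 in Pcl1-3 wt. On day 0 it was at 127 in the sample labelled Jarid2 null against 301 in JM8. The day 0 log2 difference of Mtf2 was thus -1.24 under the label Jarid2 null and -0.396 under the label Mtf2 null. Whether these 2 day 0 samples were exchanged was not tested. Jarid2 in the samples with that label was above JM8 on days 0 and 2, and Eed in the samples with its label was above J1 on days 0, 4 and 7. Samples are therefore called by their label, and no direction here is tied to loss of the protein. Lines were compared over the 4 days with limma, with the day as a block, and called at an adjusted p under 0.05. The days stand in for replicates of a line, so these p-values measure the spread of lines over days and not between repeated cultures.

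Inhbb and Smad7 differed between lines. Inhbb had 73.4, 57.3, 0.926 and 1.78 CPM on days 0, 2, 4 and 7 in the samples labelled Mtf2 null against 5.36, 6.27, 0.5003 and 0.401 in Pcl1-3 wt. It was higher on 4 of 4 days, at a log2 fold change of 2.21 (SE 0.599, limma adjusted p = 0.0146), and 2 of 9 genes were called against 18.7% of all genes. The Inhbb call was lost without day 0 (1.72, adjusted p = 0.0773) and without day 2 (1.91, adjusted p = 0.0794). Smad7 had 243, 179, 79.9 and 93.9 CPM in the samples labelled Mtf2 null, against 109.7, 126, 49.5 and 53.5 in Pcl1-3 wt, and was higher on 4 of 4 days (0.79, SE 0.218, adjusted p = 0.0164). Without day 7 this was 0.80 (adjusted p = 0.0857), not called. In the samples labelled Jarid2 null Smad7 had 199, 186, 70.9 and 89.2 CPM against 81.3, 85.1, 34.9 and 60.5 in JM8, again higher on 4 of 4 days (1.00, SE 0.218, adjusted p = 0.00446), and it was the only 1 of the 9 genes called there (15% of all genes). Without day 2 it was 0.95 (adjusted p = 0.0551). With the days not blocked none of these 3 calls remained (adjusted p = 0.587, 0.346 and 0.232).

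In the samples labelled Eed null limma called 0 of 9 genes (11.5% of all genes), with 3 at an unadjusted p under 0.05 and 0 by edgeR on the recovered reads. Lefty2 had 34.8, 529, 183 and 56.3 CPM against 69.7, 316, 13.5 and 3.48 in J1 (1.84, adjusted p = 0.0909). It was below J1 on day 0 and above it on the other days. Gdf3 had 35.5, 87.0, 50.6 and 16.6 CPM against 39.4, 72.9, 4.39 and 3.30 (1.43, adjusted p = 0.0563). Without day 0 both were called, at 2.78 (adjusted p = 0.0243) for Lefty2 and 1.96 (adjusted p = 0.0319) for Gdf3. Markers of undifferentiated cells were also higher under this label on the later days. The 5 of them summed to 1200 and 508 CPM on days 4 and 7 against 376 and 92.8 in J1, with Esrrb at 175 against 20.4 and Zfp42 at 210.1 against 19.3 on day 4 and Pou5f1 at 180.3 against 27.3 on day 7. Visceral endoderm markers summed to 211 against 22.1 CPM on day 4 and lateral mesoderm markers to 58.5 against 756. No marker was called over the 4 days, and their part in the result was not tested. Lefty1 had 1.88, 33.1, 49.03 and 6.59 CPM against 32.975, 120.45, 2.87 and 0.806 in J1, lower on days 0 and 2 and higher on days 4 and 7. In every one of the 6 lines Lefty1 and Lefty2 were higher on day 2, in embryoid bodies, than on day 0, in monolayer cells.

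Nodal ranged from 3.85 to 56.0 CPM over the 24 samples. Tdgf1 had 1443, 2044, 277 and 83.9 CPM in the samples labelled Mtf2 null against 633, 654, 181 and 195 in Pcl1-3 wt, higher on days 0 to 4 and lower on day 7, and was not called. Under the label Jarid2 null its day 0 level was above JM8, by 0.658 on the log2 scale, unlike the UD directed libraries of that label against WT. Cer1 was at 0 in all day 0 samples and reached at most 5.05 CPM, in J1 on day 4, and Inhba at most 1.92 CPM. Of the 26 other pathway genes tested, Furin and Pmepa1 were higher under each of the 3 labels (log2 fold changes 0.68, 1.06 and 0.71 for Furin and 1.30, 1.31 and 0.90 for Pmepa1, in the order Mtf2, Jarid2 and Eed). Smurf2 was lower under each (-0.56, -0.38 and -0.54). In all, 3 were higher and 4 lower under the label Mtf2 null, 2 and 3 under Jarid2 null, and 2 and 1 under Eed null. Of all genes 18.7%, 15% and 11.5% were called under these labels, in either direction.

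**Figure D3:**
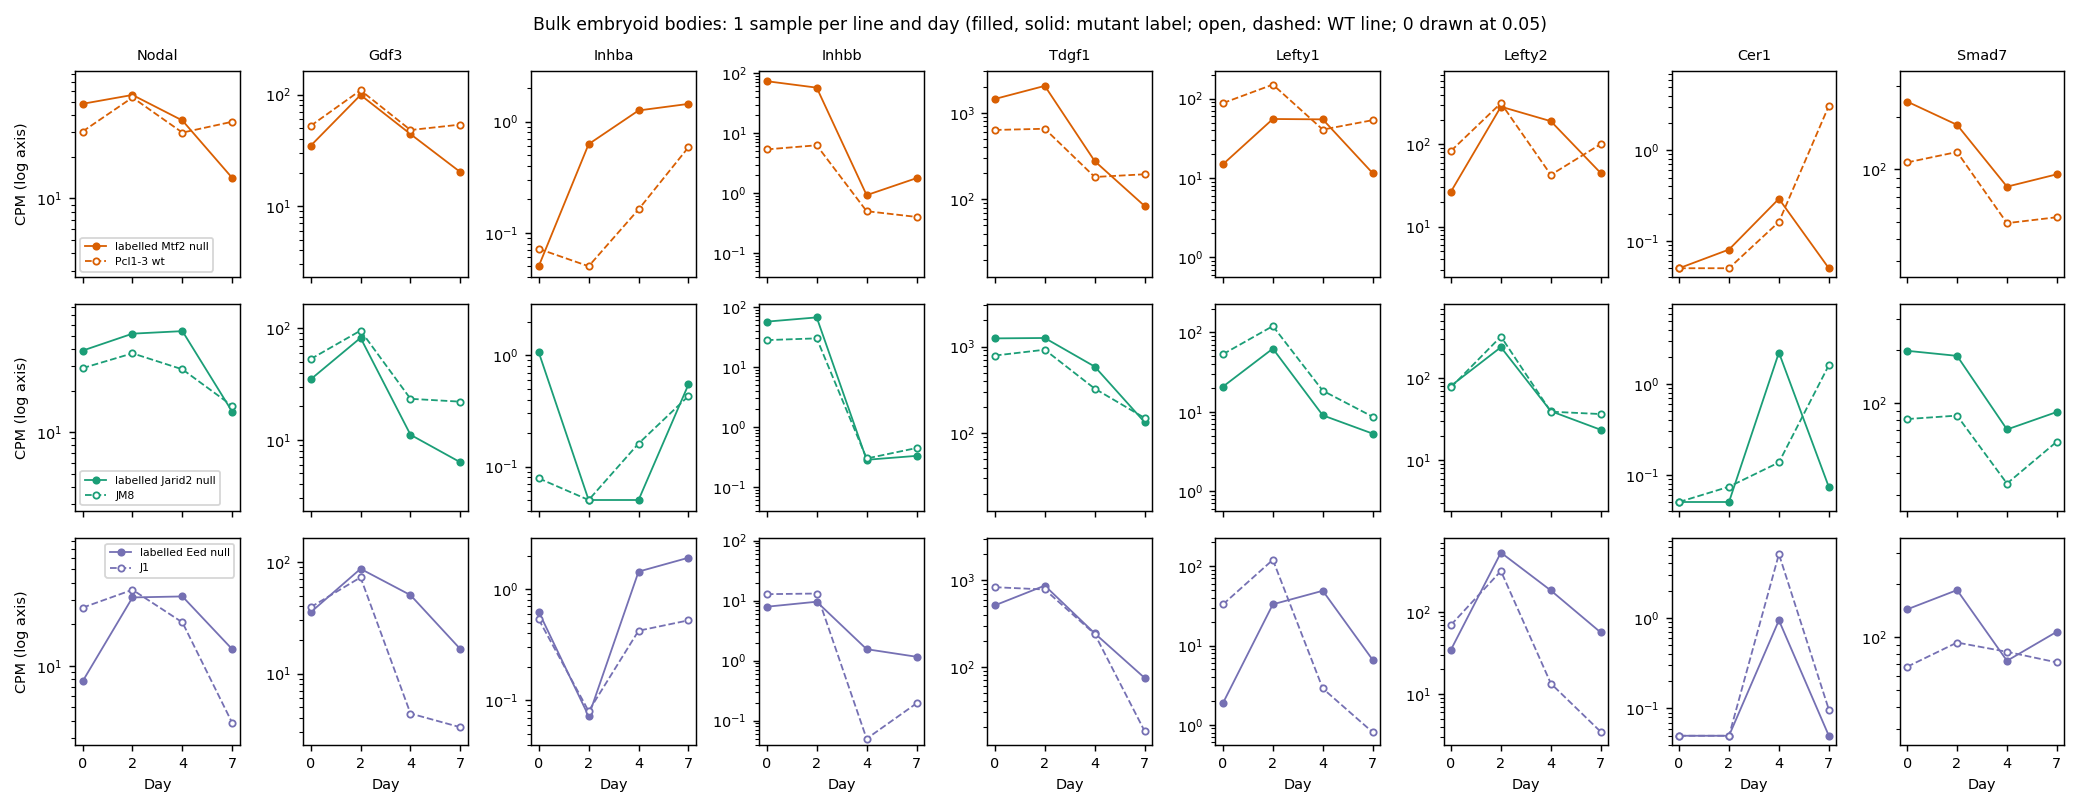
Level (CPM, log axis) of the 9 genes in bulk embryoid bodies on days 0, 2, 4 and 7 (evenly spaced; day 0 is monolayer cells), 1 sample a point (the mean of its columns), with filled points and solid lines for samples labelled null, open points and dashed lines for the control line of the same pair, and 0 drawn at 0.05. Smad7 and Inhbb lie above the control line on all 4 days in the samples labelled Mtf2 null, and Cer1 lies at or near 0 in most samples.

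In single cells the 16 libraries held 4949 cells, 202 to 347 each, with a median of 4997 to 10603 unique molecular identifiers (UMIs) a cell. Mtf2, Jarid2 and Eed mRNA were lower in their null libraries on day 0 (56.3 against 793, 146 against 594 and 11.5 against 478 UMI CPM). Barcodes mark plate positions, and 22 were kept in all 16 libraries. With 1 library for each genotype and day no test between genotypes was possible. Intervals are 95% and cover counting error only. Shares of cells with a UMI are also given after thinning each cell to 2500 UMIs, which left out 492 shallower cells. Tdgf1 had 27102 UMIs and was found in 65.4% of cells, Lefty2 in 40.5%, Smad7 in 41.6%, Gdf3 in 25.5%, Lefty1 in 18.6%, Nodal in 8.91% and Inhbb in 6.95%. Cer1 was found in 34 cells and Inhba in 23.

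As an example of low shares, cluster 18 of the deposited clustering (114 cells, median 6004 UMIs, named only by its number) had no cell with a Nodal or Lefty1 UMI, which at 3 counts of the total allows up to 2.63% of cells with a UMI. In that cluster 2.63% of cells had a Lefty2 UMI. It was chosen after seeing its values, and 63 of its cells were WT cells of day 10. Its shares therefore give no measure of technical background in other clusters or libraries.

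Lefty2 was the member with the clearest differences between libraries on day 0. It had 1828 of 2989314 UMIs in WT (584 to 640 UMI CPM), and its level was 456 (435 to 478) in Mtf2 null, 133 (121 to 147) in Jarid2 null and 711 (683 to 740) in Eed null cells. The intervals did not overlap, with Jarid2 null lowest. The share of cells with a Lefty2 UMI was 85.0%, 75.5%, 38.6% and 82.1%, and after thinning 60.9%, 47.6%, 19.2% and 60.1%. Median UMIs a cell ran from 8447 in WT to 10603 in Mtf2 null cells. On day 7 the Eed null library stood apart, with 511 UMI CPM (483 to 541) against 121 (106 to 136) in WT, 140 (125 to 156) in Mtf2 null and 53.5 (43.6 to 65) in Jarid2 null cells, and a thinned share of 43.1% against 13.7% in WT. By day 10 all 4 libraries were between 20.2 and 55.1 UMI CPM.

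Lefty1 on day 0 was 110 UMI CPM (98.2 to 122) in WT and 131 (120 to 143) in Mtf2 null cells, whose intervals overlap, and lower in Jarid2 null (32.7, 26.7 to 39.6) and Eed null cells (42.7, 36 to 50.2). The Eed null library of day 0 thus had more Lefty2 and less Lefty1 than the WT library. In WT Lefty1 was highest on day 4, at 164 UMI CPM (147 to 182), and in Jarid2 null cells it was 69.0 (59.1 to 80) then. Of the 921 cells with a Lefty1 UMI 73.4% also had a Lefty2 UMI, and of the 2002 cells with Lefty2 33.8% also had Lefty1. These were 676 cells with both, where 525 were expected by library and cluster, and the difference was not tested.

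Nodal on day 0 was higher in Mtf2 null cells, at 20.3 UMI CPM (16.1 to 25.3), than in WT (7.36, 4.61 to 11.1), Jarid2 null (10.6, 7.33 to 14.8) and Eed null cells (9.72, 6.69 to 13.6). The Mtf2 null interval overlapped none of the others. The share of cells with a Nodal UMI was 19.6% in Mtf2 null and 6.47% in WT cells, but after thinning 4.14% and 3.08%. The thinned levels were 18.9 and 12.3 UMI CPM. On day 4 the levels were 26.7 (20.9 to 33.6) and 17.7 (12.6 to 24.4) UMI CPM, with overlapping intervals.

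Of 558 Inhbb UMIs 486 (87.1%) were from day 0, where Jarid2 null cells had 68.5 UMI CPM (59.8 to 78.2), WT 38.5 (31.8 to 46.2), Mtf2 null 31.6 (26.3 to 37.7) and Eed null cells 8.25 (5.48 to 11.9). On day 4 Jarid2 null cells still had 14.7 UMI CPM (10.3 to 20.2) against 4.67 (2.24 to 8.59) in WT. No cell of the 4 libraries had an Inhbb UMI on day 10. Gdf3 was at 84.3 UMI CPM on day 0 and 13.6 on day 10 in WT, and at 124 and 41.5 in Jarid2 null cells. On day 0 it was higher in all 3 mutants than in WT, the intervals overlapping at most at their ends (94.8 to 117 in Eed null against 74.2 to 95.4 in WT). Tdgf1 was at 1340 UMI CPM (1300 to 1380) on day 0 and 142 (123 to 163) on day 10 in WT, and was lowest in Eed null cells on day 10, at 41.8 (31.6 to 54.3). Smad7 was at 130 (117 to 143) on day 0 and 115 (98.1 to 134) on day 10 in WT, with overlapping intervals, and had its highest level in Eed null cells on day 0 (202, 187 to 217).

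**Figure D4:**
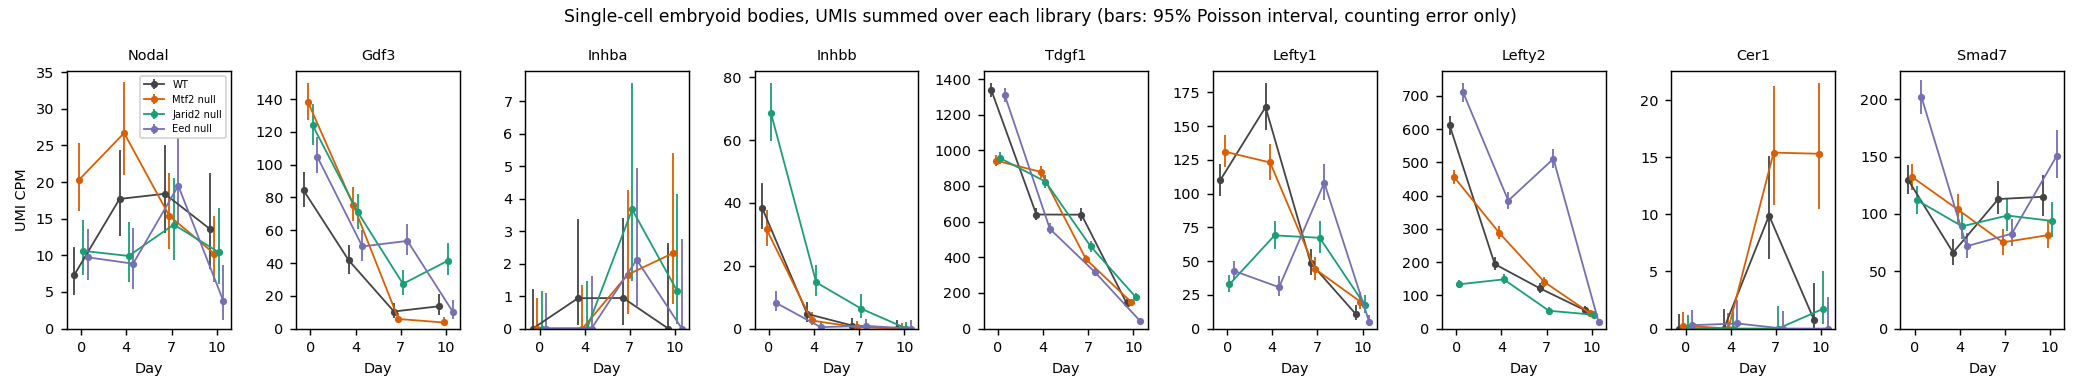
UMI CPM of the members in single cells on days 0, 4, 7 and 10 for 4 genotypes, 1 library a point, with bars for 95% Poisson intervals (counting error only). Lefty2 on day 7 is highest in Eed null cells (511 UMI CPM), and Cer1 is above 2 UMI CPM only in WT on day 7 and in Mtf2 null cells on days 7 and 10.

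Over the 22 clusters that the authors deposited at their resolution of 2.5, which were made from the same cells and genes and so give descriptions only, Lefty2 after thinning ran from 0% of cells in cluster 18 to 60.8% in cluster 6, and Tdgf1 from 2.83% in cluster 18 to 92.5% in cluster 3. The clusters highest in these genes were mostly day 0 cells of 1 genotype. Cluster 3 held 307 WT day 0 cells of 335, cluster 6 held 280 Eed null day 0 cells of 303, and cluster 8, where Inhbb was highest (70.0 UMI CPM), held 223 Jarid2 null day 0 cells of 265. Lefty1 and Nodal were highest in cluster 12, at 216 (194 to 240) and 30.8 (22.9 to 40.5) UMI CPM, which was mostly WT cells of days 4 and 7. Cluster 1 held 167 Mtf2 null, 117 Jarid2 null, 51 WT and 6 Eed null cells. Lefty2 in it was at 261 UMI CPM (236 to 288) in Mtf2 null, 130 (108 to 154) in Jarid2 null and 117 (85.8 to 156) in WT cells, but the days differed, with 70, 12 and 2 of these cells from day 4.

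Cer1, a secreted inhibitor of Nodal, BMP and Wnt proteins that marks anterior visceral and definitive endoderm in the embryo, was concentrated in a few cells. Of its 98 UMIs 73 (74.5%) were in cluster 21, where 14 of 47 cells (29.8%, 17.3 to 44.9) had a UMI, and where 17.8% did after thinning. The level was 15.4 UMI CPM (10.8 to 21.2) on day 7 and 15.3 (10.5 to 21.5) on day 10 in Mtf2 null cells, 9.89 (6.12 to 15.1) on day 7 in WT, and 0 on day 7 in Jarid2 null (302 cells) and Eed null cells (319 cells), where a count of 0 allows up to 0.993% and 0.94% of cells with a UMI (3 counts of the total; the upper exact binomial bounds were 1.21% and 1.15%). These levels rest on 37 UMIs in 14 cells and 33 in 9 for Mtf2 null, and on 21 in 5 for WT. The highest cell held 20 UMIs, and intervals that cover counting error only are too narrow for such clumped counts. Cluster 21 held 22 Mtf2 null, 6 WT and 2 Eed null cells of day 7, and its 3 Jarid2 null cells were of day 10. The part of this makeup was not tested. In the 34 cells with Cer1, 7 also had Nodal and 22 also had Tdgf1, where 3.0 and 17.5 were expected by library and cluster. These differences were not tested.

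**Figure D5:**
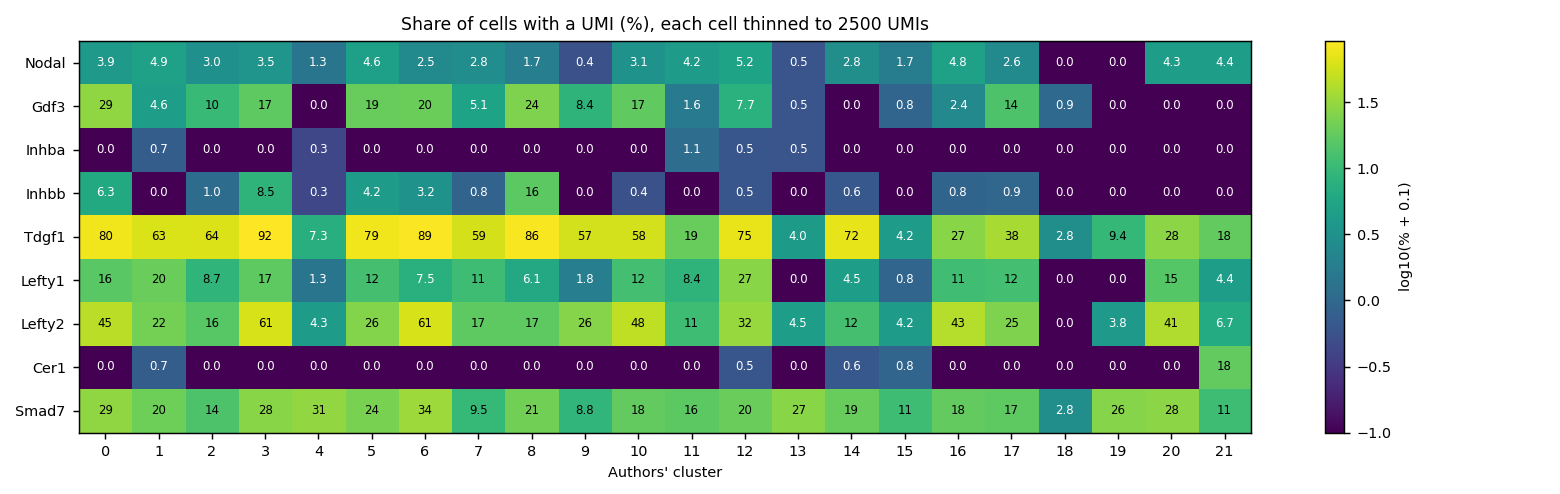
Percent of cells with a UMI of each member after thinning to 2500 UMIs (colour and printed value) in each of the 22 clusters, given by number. Cer1 reaches 17.8% in cluster 21, and Tdgf1 reaches 92.5% in cluster 3.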

How the data were processed

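The series comprises 88 mouse samples: 24 bulk RNA-seq libraries in each of the mesoderm and endoderm series, 24 bulk embryoid body samples and 16 single-cell libraries. For the directed series the authors estimated counts per gene with Salmon, and the deposited tables hold these estimated (expected) counts, which were rounded to whole numbers. For the bulk embryoid bodies the authors deposited counts divided by DESeq2 size factors, a signal on a linear scale, from which whole reads were recovered for 100% of values (within 0.01) in 45 of 46 columns, giving 4071242 to 30457254 reads a sample. For single cells the authors deposited UMI counts (SORT-seq, Bowtie2 and HTSeq on GRCm38/mm10) with their cell clusters. Of the 24 samples 22 had 2 columns, which were averaged. There were 0 columns of other samples. The 2 columns of the label Jarid2 null at 48 h of the endoderm series are named 28h and were assigned by library number. Groups were taken from the sample labels.

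Directed counts were scaled with TMM (factors 0.833 to 1.159 and 0.850 to 1.114), filtered with filterByExpr (minimum count 10, minimum total 15; 18361 and 19261 genes kept) and tested with edgeR 4.0.16 (quasi-likelihood, Benjamini-Hochberg adjustment over all genes) with all groups of a series in 1 fit, and across series with both in 1 fit (19601 genes). Embryoid body values were tested with limma 3.58.1 on log2 CPM (prior count 2, at least 1 CPM in 4 samples, 15850 genes), with the day as a block. CPM is relative to TMM-scaled totals, and log2 fold changes of low genes are pulled towards 0 by the prior count. Alternatives were DESeq2 1.42.0, other scaling, filters and thresholds, a replicate block and leaving out each replicate or day. Single-cell UMIs were summed per library or cluster, with Poisson intervals on levels and exact binomial (Clopper-Pearson) intervals on shares. In simulated data edgeR recovered 97.5% (mesoderm) and 96.5% (endoderm) of 200 genes changed at a log2 fold of 2. The genes changed were limited to well-counted ones in the UD Mtf2 null comparison. Changes near the fold limit and genes of low count were not simulated. R 4.3.3 and Python 3.11.15 were used.

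The genes named were the 9 members, the pathway genes called (at most 6 a comparison, by size), the targeted genes, and the 3 genes most correlated with each member over 24 group means of log2 CPM, each series centred on its own mean, among genes with at least 5 CPM in 1 group. The members and lists were chosen with earlier results of these data known. Wells that the authors had discarded were not used here, and no doublet caller was run. Some genes that meet the rule are not reported here.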

Additional observations from a re-analysis of the deposited data

Results flagged for a closer look

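In the directed series Nodal, Inhbb, Lefty1, Lefty2 and Smad7 were each called in a test of the difference itself, between times or between series. The limits were an edgeR adjusted p under 0.001 and a log2 difference beyond 1. The share of all genes called in any of these tests was not computed. The share in each test, and the calls lost when 1 replicate was left out, are given above. In the mesoderm series the Mtf2 null effect on Nodal changed by -1.10 on the log2 scale from UD to 24 h, and the effect of the label Jarid2 null on Lefty1 changed by -3.21. The effect of that label on Lefty1 at 24 h differed by 3.02 between the endoderm and mesoderm series, in a comparison added after seeing the data.

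The change from 24 to 48 h differed between the endoderm and mesoderm series for Lefty1 by 9.45 in WT, 9.57 in Mtf2 null and 9.44 in labelled Jarid2 null libraries, and for Lefty2 by 10.38, 9.49 and 8.60. These fitted values depend on the prior count, since both genes were at or near 0 counts at 48 h of the mesoderm series. Smad7 differed by 1.58 in WT cells. Inhbb differed by -2.94 in WT cells and by -3.89 in the libraries labelled Jarid2 null.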

How the results depend on the processing

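Counts are of calls among the 7 genes tested over the times of a comparison. With an adjusted p under 0.05 and no fold limit the counts grew most: from 6 to 12 (mesoderm, Mtf2 null), 3 to 11 (mesoderm, labelled Jarid2 null), 4 to 13 (endoderm, Mtf2 null), 2 to 5 (endoderm, labelled Jarid2 null), 9 to 14 and 4 to 16 (WT over time, mesoderm and endoderm), 2 to 7 (change of the genotype effect), 1 to 4 (genotype effect at 24 h between series) and 3 to 8 (UD cells of both series). DESeq2 gave 5 for the label Jarid2 null in the mesoderm series and 2 for the genotype effect at 24 h between series. Without a filter on low counts these were 6 and 2, and the change of the genotype effect gave 4. With only the libraries of the 2 groups compared, the label Jarid2 null gave 1 in the mesoderm and 1 in the endoderm series. Leaving out 1 replicate gave, in the same order as above, 1 to 3, 1 to 2, 3, 0 to 1, 6 to 8, 3 to 4, 0 to 1, 0 to 1 and 2 to 4, and 6 to 7 of 9 calls for the change from 24 to 48 h between series. Replicate 1 and replicate 2 of different groups did not deviate together within a series (median correlation over 66 pairs of groups 0.00688 in the mesoderm and 0.0102 in the endoderm series, from -0.183 to 0.267), whereas UD libraries of the same number were alike between the series. With a replicate block the change of the genotype effect gave 1 call instead of 2 (that of Lefty1 was lost, adjusted p = 0.0014), the Inhbb call in Mtf2 null cells at 48 h of the mesoderm series was lost (adjusted p = 0.00101), Lefty1 was called from 24 to 48 h in WT cells of the endoderm series (-1.19, adjusted p = 0.000279), and the other counts were 5 (mesoderm, Mtf2 null), 3 (mesoderm, labelled Jarid2 null), 5 (endoderm, WT over time) and 9 (24 to 48 h between series).

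In embryoid bodies the counts were 0 under the labels Mtf2 null and Jarid2 null without a day block, 1 and 0 without day 2, 2 for the label Eed null without day 0, and 2 for the label Jarid2 null with only the 8 samples of its line pair. Of 109 alternative counts 78 were within 1.5 times the reported one and 31 were not. Of 884 single differences recomputed, 744 kept their side of the threshold, 52 lost their call, 88 gained one and 0 reversed. In single cells 94 of 144 levels were at least 10 UMI CPM, 90 after thinning. The cause of these changes was not tested. Depth limits Inhba, Cer1 and, after 24 h, Inhbb, where a library holds few counts, and duplicates limit every call. Single-cell values rest on 1 library each.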
